A study of Mus musculus with 6 samples.

Results

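The 43 antiviral interferon-stimulated genes described here are the listed effectors, nucleic acid sensors and transcription factors of the interferon response, chosen by name from a table of 18099 genes. Of these, 41 had a row in the table, and 40 had enough reads to be tested among 14261 genes. *Ifi44l* had 1 read in a control library and 1 read in a LysM-Cre library and was not tested, and *Mx1* and *Mx2* were not analysed here. RNA was sequenced from whole injured Achilles tendon of newborn mice, collected 7 days after transection. The LysM-Cre; Ampkα1fl/fl group (3 libraries) carries Cre recombinase at the lysozyme M locus together with floxed alleles of Ampkα1, a catalytic subunit of the energy sensor AMP-activated protein kinase. The control group (3 libraries) was littermates, which the study names as Ampkα1fl/fl mice, so the floxed alleles are shared and Cre is not. Cre from this locus acts in macrophages, monocytes and neutrophils, whereas the RNA came from every cell of the repair tissue. The study used the comparison to ask what loss of AMPKα1 in macrophages does to the healing tendon. The groups also differ in the Cre insertion itself and in *Lyz2*, so the loss of AMPKα1 and the insertion cannot be told apart.

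Type I interferons signal through the receptor IFNAR, the kinases JAK1 and TYK2, and a transcription factor complex that includes STAT2 and IRF9. The complex binds a promoter sequence called the interferon-stimulated response element (ISRE), and its target genes restrict viruses at entry, replication and release. Interferon gamma acts through another promoter sequence, the gamma-activated site (GAS), and induces an overlapping set of genes. In sterile injury the same genes serve as a readout of interferon signalling in macrophages and stromal cells.

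Each library held between 18076805 and 19479887 reads assigned to genes. Expression is given as CPM, read counts relative to the TMM-scaled size of the library. *Lyz2*, into which the Cre of this line is inserted, was at 390, 425 and 404 CPM in the control libraries and at 0.469, 0.811 and 0.432 CPM in the LysM-Cre libraries. *Prkaa1*, which encodes AMPKα1, had 39.2, 37.6 and 37.8 CPM in the control libraries and 32.7, 40.6 and 35.2 CPM in the LysM-Cre libraries, and the groups overlapped on the targeted gene in whole tissue. All 10 tendon cell markers were present, and their sum lay between 92570.0 and 109790.0 CPM. The libraries differed in skeletal muscle RNA, with summed CPM over 20 muscle genes of 299, 875 and 4530.3 in the control libraries and 4845, 1562 and 13253 in the LysM-Cre libraries. The sum over 4 Y-linked genes was 41.7, 45.5 and 61.2 CPM in the control libraries and 93.7, 89.1 and 136 CPM in the LysM-Cre libraries, and the part of sex in the results was not tested.

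The interferon-stimulated genes were mostly higher in the LysM-Cre group, but only *Adar*, which encodes the RNA editing enzyme ADAR1, passed the test across all genes. Log2 fold changes (LysM-Cre over control) were above 0 for 37 of 40 members, against 49.4% of all genes tested, and their median was 0.48, against -0.002 over all genes. In the quasi-likelihood test of edgeR, 23 members were higher and 0 lower at an unadjusted p under 0.05, where 5.97% of all genes were higher at that level. After Benjamini-Hochberg adjustment over all genes 1 member was called, against 0.33% of all genes tested. With DESeq2 13 members were called higher, against 2.15% of all genes. These were *Adar*, *Oasl2*, *Ifi44*, *Isg15*, *Ddx58*, *Stat2*, *Ifit1*, *Ifit3*, *Ifit3b*, *Usp18*, *Trim30a*, *Rtp4* and *Parp14*. With the replicate number as a block, edgeR called 0 members.

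**Figure D1:**
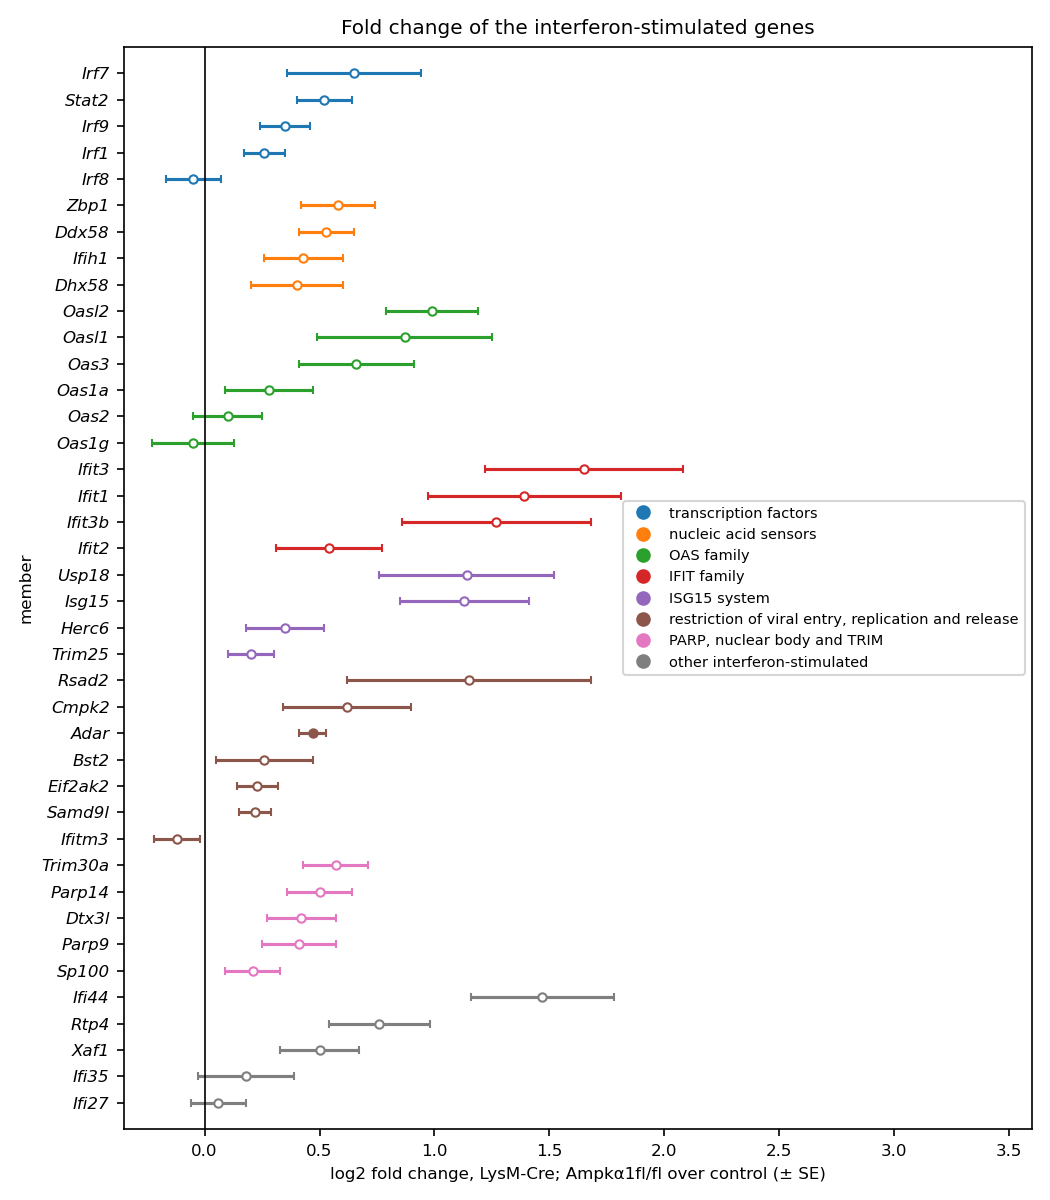
Log2 fold change of the 40 tested members (LysM-Cre; Ampkα1fl/fl over control, 3 libraries each) with its standard error, coloured by role, from edgeR; the filled point passed an adjusted p of 0.05 and open points did not. Points for 37 members lie above 0, *Ifit3* is farthest at 1.65, and *Adar* is filled at 0.47 with the shortest bar.

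The LysM-Cre libraries did not move together. The mean log2 CPM over the 40 members was 3.83, 3.99 and 3.86 in the control libraries (3.89 ± 0.08, SD, n = 3) and 4.58, 3.98 and 4.63 in the LysM-Cre libraries (4.40 ± 0.36, SD, n = 3). Replicates 1 and 3 of the LysM-Cre group therefore lay 0.69 and 0.74 above the control mean, and replicate 2 lay 0.09 above it, within the control range. The highest value of a member was in LysM-Cre replicate 1 or 3 for 36 of 40 members. The exceptions were *Irf1*, highest in LysM-Cre replicate 2, and *Irf8*, *Oas1g* and *Ifitm3*, highest in a control library. All 3 LysM-Cre libraries were above all 3 control libraries for 18 members, against 8.94% of all genes tested. Without LysM-Cre replicate 2, the groups were apart in this direction for 36 members, against 18.5% of all genes, and edgeR called 18 members higher, against 0.964% of all genes. Replicate 2 had the lowest member mean of its group, so leaving it out favours such calls. Leaving out any other library gave 0 called members, and the members higher at an unadjusted p under 0.05 numbered 13 without LysM-Cre replicate 1 (4.05% of all genes) and 13 without LysM-Cre replicate 3 (4.88% of all genes).

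**Figure D2:**
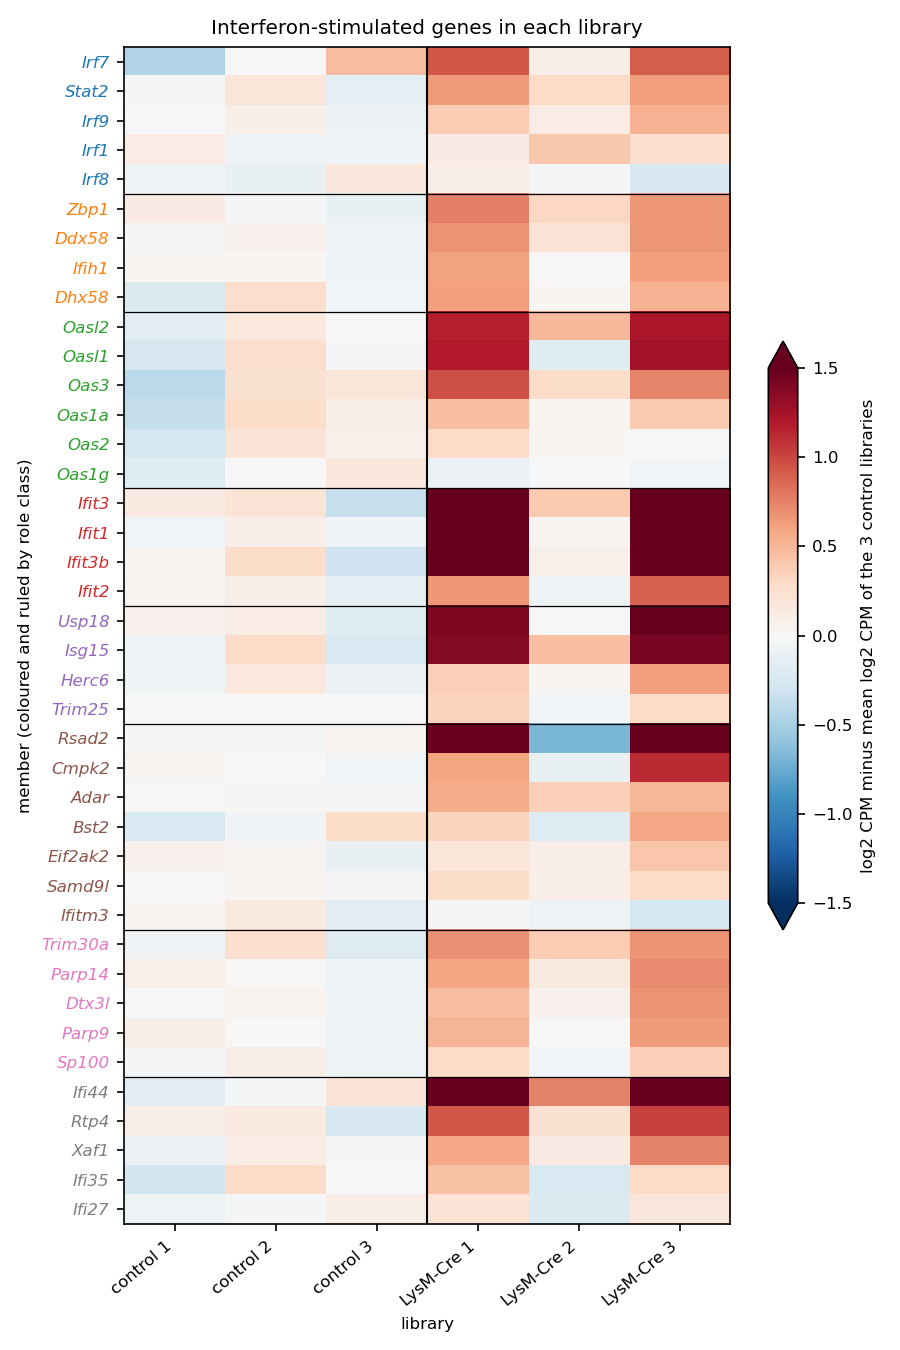
Each row is a tested member and each column a library; colour gives log2 CPM minus the mean log2 CPM of the 3 control libraries, cut at 1.5 in either direction, and rows are ordered by role and then by fold change. LysM-Cre replicates 1 and 3 are red in nearly every row, and LysM-Cre replicate 2 is pale, with *Rsad2* below the controls and *Ifi44*, *Oasl2* and *Isg15* above them.

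The order of the libraries was set beside their muscle RNA and their immune cells. LysM-Cre replicate 2 had the least muscle RNA of its group. Control replicate 3 and LysM-Cre replicate 1 had near-equal muscle sums of 4530.3 and 4845 CPM, and their member means were 3.86 and 4.58. When a muscle score entered the edgeR fit, the median log2 fold change of the members was 0.29, 9 members were higher at an unadjusted p under 0.05 (5.02% of all genes) and 0 were called. The log2 fold change was then nearer 0 for 36 of 40 members, with *Ifit1* at 0.84 in place of 1.39, *Oasl1* at 0.37 in place of 0.87, *Rsad2* at 0.38 in place of 1.15 and *Cmpk2* at 0.24 in place of 0.62. The sum over 12 macrophage markers was 1154, 1212 and 1172 CPM in the control libraries and 934, 955 and 751 CPM in the LysM-Cre libraries, all below the controls. The markers did not all move together. *Mertk*, *Cd68* and *Fcgr1* were higher, with log2 fold changes of 0.21 (SE 0.06), 0.25 (SE 0.14) and 0.11 (SE 0.13), and the others were lower. Also below the controls in every LysM-Cre library were the sums over 6 monocyte markers (191 to 237 CPM against 76.5 to 133), 8 erythroid genes (1997 to 2974 CPM against 676 to 983) and 14 cell division genes (509 to 662 CPM against 316 to 453). In whole tissue fewer cells of a type and less RNA per cell cannot be told apart. All 6 markers of plasmacytoid dendritic cells, the main source of type I interferon in blood, had rows, and their sum lay between 1.14 and 2.81 CPM, with the control libraries between 1.42 and 2.06 CPM. The highest sum was in LysM-Cre replicate 3, where *Ly6d* had 19 reads and *Pacsin1* had 22. *Siglech* had 12, 8 and 10 reads in the control libraries and 6, 5 and 3 in the LysM-Cre libraries. *Ccr9*, *Klk1* and *Spib* had few reads and overlapping groups. The part of these cells and genes in the result was not tested.

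Among the transcription factors, *Stat2*, *Irf9* and *Irf1* had groups that did not overlap, and *Irf7* and *Irf8* had groups that did. *Stat2*, the subunit that carries the transactivation domain of the complex, had 35.9, 41.6 and 33.2 CPM in the control libraries and 57.1, 44.9 and 56.6 CPM in the LysM-Cre libraries. Every LysM-Cre library was above every control library, with a log2 fold change of 0.52 (SE 0.12, edgeR adjusted p = 0.123). *Irf9*, its DNA-binding partner, had 31.0, 33.0 and 29.2 CPM against 40.5, 33.6 and 44.4 CPM, with replicate 2 barely above the highest control (log2 fold change 0.35, SE 0.11, edgeR adjusted p = 0.216). *Irf1*, which interferon gamma induces through a GAS, had 26.4, 23.6 and 23.6 CPM against 26.8, 32.3 and 29.2 CPM, with its highest value in LysM-Cre replicate 2. *Irf7*, the factor that amplifies interferon production, had 16.1, 21.8 and 30.2 CPM against 41.9, 23.5 and 41.2 CPM. For *Irf7* LysM-Cre replicate 2 lay between the controls, and the control libraries stood in the order of their muscle RNA. Its log2 fold change was 0.65 (SE 0.29), and 0.15 with the muscle score as a covariate. *Irf8*, which directs monocyte and dendritic cell development, had 15.6, 15.03 and 18.3 CPM against 17.5, 16.0 and 13.8 CPM, a log2 fold change of -0.05 (SE 0.12) with overlapping groups.

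Promoter windows from 250 bases before to 50 bases after the start of transcription (RefSeq, build GRCm38.p6) were searched for the ISRE core, written GAAANNGAAA or TTTCNNTTTC on the other strand, and for the GAS core TTCNNNGAA, which reads the same on both strands. Windows were matched for 33 members. The ISRE core was found for 15 of them (45.5%), against 3.99% of the 27025 genes with a window. The GAS core was found for 9 members (27.3%), against 9.55% of all genes. *Ifit3*, *Ifit1*, *Ifit3b* and *Isg15*, which were among the members with the largest fold changes, each held 2 or 3 ISRE matches, and *Ifi44*, at 1.47, held none. The sequences below are the stretches around the matches of these first 4 genes, all upstream of the start, printed 5′ to 3′ on the gene's strand with the ISRE letters in capitals. They lie on chromosome 4 at chr4:156200860-156200911 (minus strand) for *Isg15*, and on chromosome 19 at chr19:34640770-34640828 for *Ifit1*, chr19:34583358-34583431 for *Ifit3* and chr19:34607754-34607827 for *Ifit3b* (plus strand).
Isg15: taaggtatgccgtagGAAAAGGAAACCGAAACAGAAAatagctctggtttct
Ifit1: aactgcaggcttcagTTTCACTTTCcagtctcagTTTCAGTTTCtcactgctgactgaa
Ifit3: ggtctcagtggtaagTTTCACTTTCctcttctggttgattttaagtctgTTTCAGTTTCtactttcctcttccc
Ifit3b: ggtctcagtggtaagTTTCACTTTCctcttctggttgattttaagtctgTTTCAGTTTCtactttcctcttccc
The 3 matches of *Isg15* overlap each other and span 78 to 57 bases before the start. *Ifit1* and *Ifit3* each hold 2 separate matches, and the stretches of *Ifit3* and *Ifit3b* were identical over 74 bases. Tested members with an ISRE match (15) had a median log2 fold change of 0.53 (-0.12 to 1.65), and tested members with a window and no match (17) had 0.42 (-0.05 to 1.47). The ranges overlap, so the letters alone did not sort the members by their fold change.

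**Figure D3:**
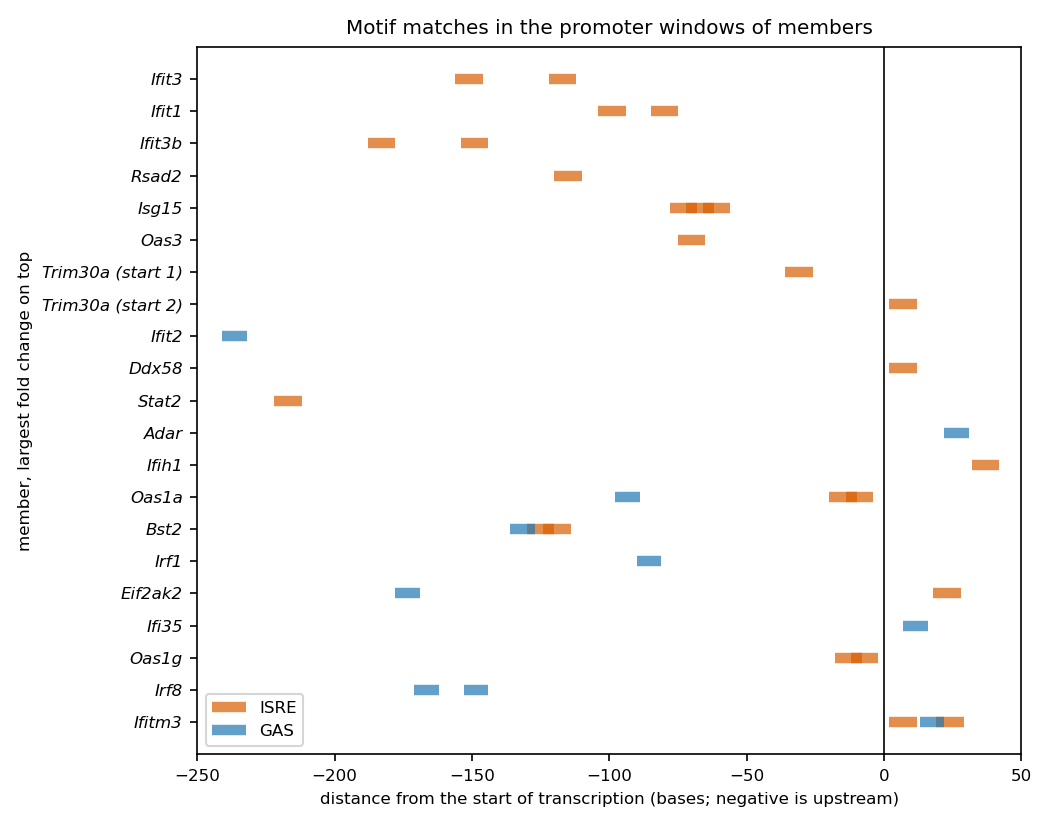
Positions of ISRE matches (orange) and GAS matches (blue) in bases from the start of transcription, for the members with a match, ordered by log2 fold change with the largest on top; *Trim30a* has 2 start sites. *Ifit3*, *Ifit1*, *Ifit3b*, *Rsad2* and *Isg15* carry their matches between 188 and 57 bases upstream, and *Ifitm3*, at the bottom, has its matches within the first bases of the transcript.

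The IFIT family, whose proteins bind viral RNA ends and block its translation, had the highest median log2 fold change of the member classes, 1.33. Its library mean also had the largest SD over the 3 LysM-Cre libraries of any member class, 0.83. The 4 genes lie together at chr19:34550550-34650009. *Ifit3* had 14.97, 15.7 and 10.7 CPM in the control libraries and 56.2, 17.8 and 56.4 CPM in the LysM-Cre libraries, a log2 fold change of 1.65 (SE 0.43, edgeR adjusted p = 0.143). *Ifit1* had 7.94, 8.74 and 7.89 CPM against 27.6, 8.44 and 28.2 CPM (log2 fold change 1.39, SE 0.42, edgeR adjusted p = 0.196). *Ifit3b* had 4.497, 5.36 and 3.56 CPM against 14.1, 4.65 and 13.6 CPM (log2 fold change 1.27, SE 0.41). In LysM-Cre replicates 1 and 3 these 3 genes were far above every control, and in replicate 2 *Ifit1* and *Ifit3b* lay between the controls. *Ifit2* ranged from 23.3 to 27.2 CPM in the controls and from 24.1 to 47.1 CPM in the LysM-Cre libraries. With all 6 libraries edgeR called 0 of the 4. Without LysM-Cre replicate 2 all 4 were called by edgeR, with adjusted p between 0.00412 for *Ifit1* and 0.0386 for *Ifit2*, against 0.964% of all genes. Replicate 2 was the lowest LysM-Cre library for each of them, so leaving it out favours a call. *Ifit3* and *Ifit3b* are near-identical copies, so the division of reads between them is uncertain.

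The 2′-5′-oligoadenylate synthetases (OAS) make the second messenger that activates RNase L, an activity that the OAS-like protein OASL1 lacks. *Oasl2* had 21.9, 27.5 and 24.7 CPM against 55.2, 34.5 and 57.4 CPM, with all LysM-Cre libraries above the controls (log2 fold change 0.99, SE 0.20, edgeR adjusted p = 0.0869). *Oasl1*, whose product restrains translation of *Irf7*, had 2.38, 3.39 and 2.80 CPM against 6.47, 2.49 and 6.76 CPM, with replicate 2 inside the control range (log2 fold change 0.87, SE 0.38). *Oas3* had 2.12, 3.28 and 3.18 CPM against 5.48, 3.41 and 4.65 CPM (log2 fold change 0.66, SE 0.25). The other OAS genes overlapped between the groups. *Oas1a*, *Oas2* and *Oas1g* had log2 fold changes of 0.28 (SE 0.19), 0.10 (SE 0.15) and -0.05 (SE 0.18). *Oas1a* and *Oas1g* are close paralogs that may share reads. They are shown here because their matches overlap and sit right before the start, at chr5:120907526-120907560 and chr5:120887614-120887646 (minus strand), while their fold changes were small within the OAS family.
Oas1a: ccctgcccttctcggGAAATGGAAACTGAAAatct
Oas1g: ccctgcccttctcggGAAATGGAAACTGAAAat
The stretches were identical over the 33 bases they share.

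The ISG15 system attaches the ubiquitin-like protein ISG15 to target proteins and removes it. *Isg15* had 7.35, 9.40 and 6.58 CPM in the control libraries and 19.97, 10.5 and 20.6 CPM in the LysM-Cre libraries, all above the controls (log2 fold change 1.13, SE 0.28, edgeR adjusted p = 0.129). *Usp18*, the protease that removes ISG15 and dampens IFNAR signalling, had 5.61, 5.79 and 4.71 CPM against 14.2, 5.35 and 16.0 CPM, with replicate 2 inside the control range (log2 fold change 1.14, SE 0.38, edgeR adjusted p = 0.232). *Herc6*, the main ISG15 ligase of mice, had 6.77, 7.92 and 6.69 CPM against 9.13, 7.25 and 10.9 CPM (log2 fold change 0.35, SE 0.17). *Trim25*, a ubiquitin ligase that also activates RIG-I, had a log2 fold change of 0.20 (SE 0.10), with LysM-Cre replicate 2 as its lowest library.

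**Figure D4:**
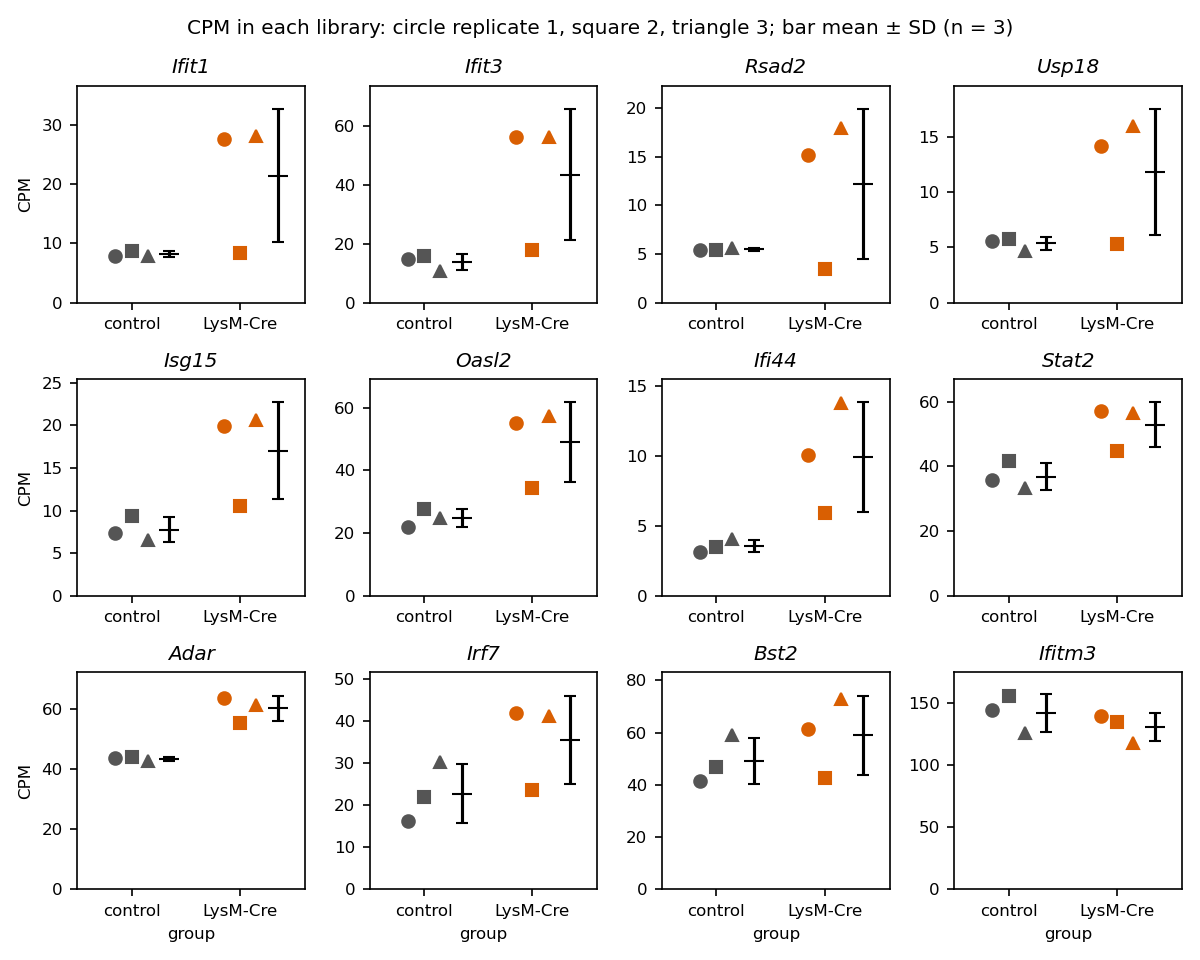
CPM (linear axis from 0) of 12 members in each library; circles are replicate 1, squares replicate 2 and triangles replicate 3, and bars give the mean ± SD of 3 libraries. For *Rsad2* the LysM-Cre square sits below the control points, and for *Ifit1* and *Usp18* it sits within their range. For *Adar* and *Oasl2* all LysM-Cre points sit above the control points, and for *Ifitm3* the groups overlap.

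All 4 cytosolic nucleic acid sensors were above the controls in LysM-Cre replicates 1 and 3. *Ddx58*, which encodes the RNA sensor RIG-I, had 39.3, 41.6 and 38.2 CPM against 63.2, 46.2 and 62.8 CPM, with no overlap (log2 fold change 0.53, SE 0.12, edgeR adjusted p = 0.119). *Zbp1*, a sensor of Z-form nucleic acids that triggers necroptosis, had 5.93, 5.36 and 5.04 CPM against 9.18, 6.76 and 8.54 CPM, also with no overlap (log2 fold change 0.58, SE 0.16). *Ifih1*, which encodes the long double-stranded RNA sensor MDA5, had 11.9, 11.9 and 11.2 CPM against 17.6, 11.6 and 17.8 CPM, with replicate 2 inside the control range (log2 fold change 0.43, SE 0.17). *Dhx58*, their regulator LGP2, had a log2 fold change of 0.40 (SE 0.20).

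The genes that act on viral entry, replication and release held both the called member and *Rsad2*, the member with LysM-Cre replicate 2 farthest below the controls. *Adar* edits adenosine to inosine in double-stranded RNA. It had 43.5, 43.9 and 42.7 CPM in the control libraries and 63.6, 55.4 and 61.4 CPM in the LysM-Cre libraries, so all 3 LysM-Cre libraries lay well above controls that spanned little more than 1 CPM. *Adar* rose by a log2 fold change of 0.47 (SE 0.06, edgeR adjusted p = 0.0339). The adjusted p was 0.0702 with the replicate block, 0.108 with the muscle score and 2.62e-05 with DESeq2. It was 0.0239 without LysM-Cre replicate 2 and between 0.0958 and 0.18 when any other library was left out. *Rsad2*, which encodes viperin, had 5.40, 5.36 and 5.65 CPM against 15.2, 3.41 and 17.9 CPM, with LysM-Cre replicate 2 below every control (log2 fold change 1.15, SE 0.53). *Cmpk2*, its neighbour on chromosome 12 (both within chr12:26442743-26479837), had 9.15, 8.91 and 8.66 CPM against 13.4, 8.22 and 19.4 CPM, again with LysM-Cre replicate 2 lowest of all (log2 fold change 0.62, SE 0.28). The stretch around the match before *Rsad2* lies at chr12:26456548-26456587 (minus strand) and is shown because *Rsad2* was far above the controls in LysM-Cre replicates 1 and 3 and below them in replicate 2.
Rsad2: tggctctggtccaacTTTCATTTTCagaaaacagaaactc
*Samd9l* and *Eif2ak2*, which encode inhibitors of translation, had non-overlapping groups with log2 fold changes of 0.22 (SE 0.07) and 0.23 (SE 0.09). *Bst2*, which tethers budding virions, had 41.4, 46.9 and 58.9 CPM against 61.4, 42.5 and 72.7 CPM, and its log2 fold change was 0.26 (SE 0.21), or -0.12 with the muscle score. *Ifitm3*, which blocks viral fusion, had 144, 156 and 125 CPM against 140, 135 and 118 CPM (log2 fold change -0.12, SE 0.10).

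The transcripts of *Adar* differed in how far they followed the gene. The gene has a long coding form, ADAR1 p150, made from a start site that interferon induces, and a short form, p110, made constitutively. In the deposited estimates, transcripts NM_019655 and NM_001146296 have coding sequences of 1152 and 1178 codons and start at 89730748 on chromosome 3, and transcript NM_001038587 has 930 codons and starts at 89715022 (GENCODE release M21, build GRCm38). The long transcripts together had 22.4, 27.1 and 26.6 CPM in the control libraries and 40.9, 34.04 and 42.0 CPM in the LysM-Cre libraries, a ratio of means of 1.54 with no overlap. The short transcript had 21.1, 16.8 and 16.1 CPM against 21.5, 21.3 and 17.3 CPM, a ratio of 1.11 with overlapping groups. These values are a description with no test, since reads shared by transcripts were divided by estimation. A similar look at the other members was made after their values were seen. For *Eif2ak2*, transcript NM_011163 had 183, 114 and 142 estimated reads in the control libraries and 388, 316 and 326 in the LysM-Cre libraries, and XM_006523863 had 782, 805 and 682 against 668, 652 and 874. For *Ifit2*, transcript NM_001355262 was listed at 0 in all 3 control libraries and had 193, 57.5 and 304 estimated reads in the LysM-Cre libraries, while NM_008332 had 489, 497 and 385 against 554, 378 and 523. Estimates of other members also switched between 0 and many reads. *Samd9l* transcript XM_006505026 had 188 estimated reads in control replicate 2 and 0 in the other libraries. *Irf9* transcript NM_001159418 had 179, 206 and 114 against 71.8, 106 and 133, with overlapping groups. Whether the 0 of *Ifit2* means absence was not tested.

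Among the PARP, nuclear body and TRIM genes, *Trim30a*, a regulator of NF-kappaB signalling, had 13.7, 17.0 and 12.4 CPM against 22.8, 18.6 and 22.8 CPM (log2 fold change 0.57, SE 0.14, edgeR adjusted p = 0.132). *Parp14* had 37.8, 35.8 and 34.1 CPM against 54.2, 39.4 and 58.5 CPM (log2 fold change 0.50, SE 0.14). *Dtx3l* had 21.01, 21.7 and 20.2 CPM against 28.8, 21.9 and 33.5 CPM (log2 fold change 0.42, SE 0.15). Groups did not overlap for these 3 genes. *Parp9*, whose protein works as a complex with DTX3L, had a log2 fold change of 0.41 (SE 0.16), close to that of its partner. *Parp9*, *Dtx3l* and *Parp14* are neighbours within chr16:35831892-35972621. *Sp100*, a scaffold of PML nuclear bodies, had a log2 fold change of 0.21 (SE 0.12) with overlapping groups.

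Of the remaining members, *Ifi44* had 3.17, 3.50 and 4.06 CPM against 10.1, 5.95 and 13.8 CPM, with no overlap (log2 fold change 1.47, SE 0.31, edgeR adjusted p = 0.0914). *Rtp4*, a chaperone of receptors, had 12.0, 12.5 and 9.49 CPM against 21.3, 13.2 and 22.9 CPM (log2 fold change 0.76, SE 0.22). *Xaf1*, which encodes a pro-apoptotic factor, had 10.05, 11.5 and 10.4 CPM against 15.9, 11.6 and 17.8 CPM (log2 fold change 0.50, SE 0.17). Both also kept their groups apart, though LysM-Cre replicate 2 was close to the highest control. *Ifi35* and *Ifi27* had log2 fold changes of 0.18 (SE 0.21) and 0.06 (SE 0.12) and overlapping groups. Per length, the members spanned a wide range of levels in the control tendon. *Ifitm3* was highest at 865 ± 77.8 TPM (reads scaled to transcript length and library total; SD, n = 3), followed by *Bst2* at 201 ± 40.4 and *Ifi27* at 135 ± 9.54. *Isg15* and *Irf7* were at 35.6 ± 6.11 and 30.2 ± 9.59 TPM, which differ by less than their spread, and *Oas3* was lowest of the tested members at 1.29 ± 0.274 TPM. The fold changes of these 3 most abundant members lay below the median of the members.

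Other genes of the pathway were read from lists written by hand. Of 20 interferon ligands, 3 had rows. *Ifng* had 0, 2 and 1 reads in the control libraries and 1, 0 and 0 in the LysM-Cre libraries, and *Ifna6* and *Ifne* had 0 reads in every library, where a count of 0 allows up to 3 reads. The ligands were thus not detectable above the floor at this depth, and the other ligands were not analysed here. Of 15 tested genes for receptors and JAK-STAT signalling, 10 were higher and 5 lower, with a median log2 fold change of 0.03, and 0 were called. *Ifngr2* and the phosphatase *Ptpn6* had log2 fold changes of 0.11 (SE 0.05) and -0.32 (SE 0.14). Of 18 tested genes that induce interferon, 13 were lower and 5 higher (median -0.05), and 0 were called. *Cgas*, the cytosolic DNA sensor, had the smallest p among them, with 8.10, 8.36 and 6.47 CPM against 4.17, 6.49 and 4.76 CPM (log2 fold change -0.57, SE 0.20, edgeR adjusted p = 0.257). *Tbk1* and *Ifi204* had log2 fold changes of -0.10 (SE 0.07) and 0.11 (SE 0.09).

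**Figure D5:**
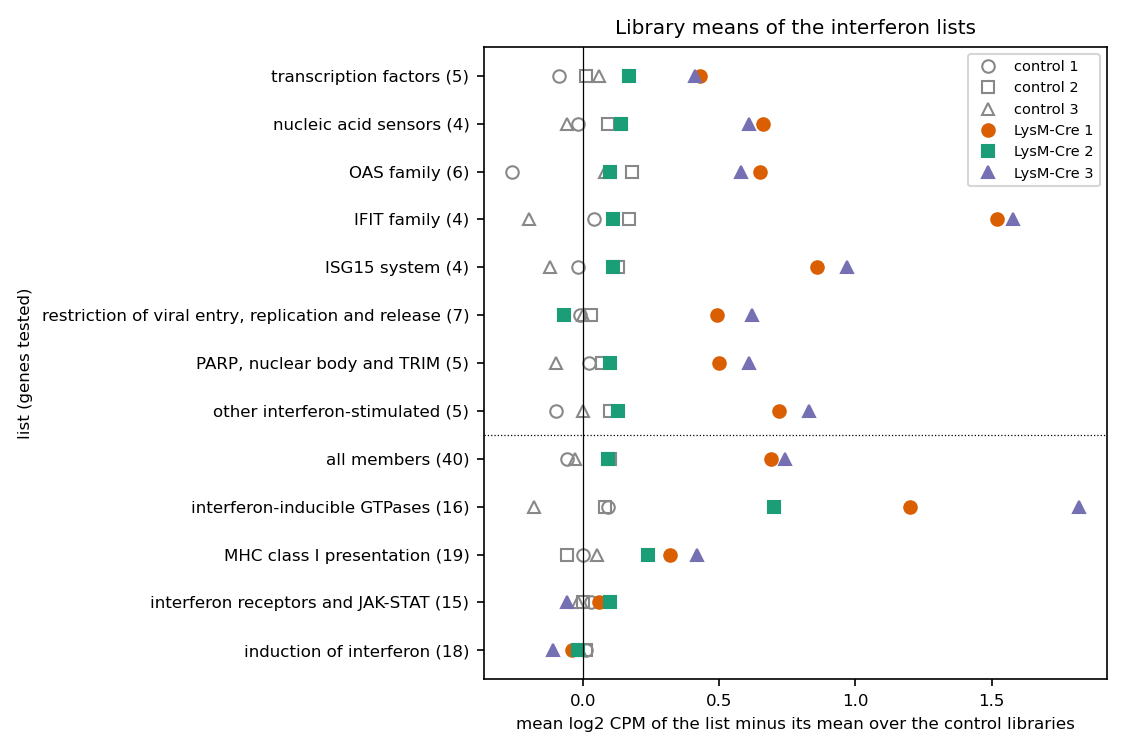
Mean log2 CPM of each list in each library minus its mean over the 3 control libraries; open grey symbols are control libraries, filled symbols LysM-Cre libraries, and the number of genes stands in brackets. For every member class LysM-Cre replicates 1 and 3 stand to the right and replicate 2 lies within 0.17 of the control mean, whereas for the inducible GTPases replicate 2 stands 0.70 above the control mean.

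In the inducible GTPases, which interferon gamma also induces, LysM-Cre replicate 2 was above every control for 15 of 16 tested genes, against 18 of the 40 members and 25.9% of all genes tested. All 16 tested interferon-inducible GTPases, which attack the vacuoles of intracellular pathogens, were higher at an unadjusted p under 0.05 in edgeR, against 5.97% of all genes. Their median log2 fold change was 1.13, with 0 called and a smallest edgeR adjusted p of 0.0508. Their library mean was 1.20, 0.70 and 1.83 above the control mean in LysM-Cre replicates 1, 2 and 3, while for the members it was 0.69, 0.09 and 0.74. The difference between the lists was not tested. *Irgm2* had 25.2, 25.4 and 23.9 CPM against 39.5, 35.1 and 47.6 CPM, *Iigp1* had 15.7, 15.03 and 12.8 CPM against 44.1, 33.0 and 75.7 CPM, and *Tgtp2* had 3.23, 2.73 and 3.40 CPM against 15.4, 11.5 and 38.2 CPM. Of 19 genes for MHC class I presentation, 2 were called higher by edgeR, against 0.33% of all genes tested. *Nlrc5*, the transactivator of MHC class I genes, rose from 5.66, 5.90 and 5.32 CPM to 12.4, 11.2 and 15.4 CPM (log2 fold change 1.21, SE 0.15, edgeR adjusted p = 0.023). *H2-Q4* rose from 34.1, 33.98 and 38.7 CPM to 50.2, 48.1 and 54.6 CPM (log2 fold change 0.52, SE 0.08, edgeR adjusted p = 0.0431). Both calls were lost with the replicate block (adjusted p = 0.0611 for *Nlrc5* and 0.0607 for *H2-Q4*) and with the muscle score. *Nlrc5* was not called without any 1 of the controls or LysM-Cre replicate 1 (0.0792 to 0.135), and *H2-Q4* not without any library but LysM-Cre replicate 2 (0.0611 to 0.201). *H2-Q6* had a log2 fold change of 1.37 (SE 0.24, edgeR adjusted p = 0.0646), though close paralogs may share its reads. Of 6 interferon-induced chemokines, 3 were higher and 3 lower (median log2 fold change 0.06), and 0 were called. *Cxcl10* and *Cxcl9*, which attract T cells, had non-overlapping groups with log2 fold changes of 1.70 (SE 0.32, edgeR adjusted p = 0.0757) and 0.54 (SE 0.14), and *Ccl12* had 0.32 (SE 0.23). *Ccl5*, *Ccl7* and *Ccl2* had log2 fold changes of -0.43 (SE 0.38), -0.30 (SE 0.31) and -0.20 (SE 0.22).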

How the data were processed

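The deposited table lists 65053 RefSeq transcripts, each with an estimated count per library, which is not normalized, and a TPM value, in which the authors had corrected for transcript length and library total. GRCm38.p6 is the build in the submitters' processing notes, and the aligner and counter are not given in the sources used here. Another 12 columns of FPKM and normalized counts per mouse and 8 group averages were not used.

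Estimated counts were summed per gene and rounded, and 18049 of 18099 genes (99.72%) were matched to a RefSeq symbol. Genes passing filterByExpr were tested by the quasi-likelihood method of edgeR 4.0.16 under R 4.3.3, after TMM scaling and with no covariate, and p-values were adjusted over all genes (Benjamini-Hochberg, threshold 0.05). The scripts were tested on simulated data. Log2 CPM uses a prior count of 2. P-values measure the spread between 3 libraries a group. Deviations from the group mean in libraries of the same number in the labels had correlations across genes of 0.184, 0.118 and 0.31. The labels do not say what the number marks, and libraries of different number were not compared. Libraries of the same number were treated as paired in an alternative with a replicate block. The other alternatives were DESeq2 1.42.0, RLE and upper-quartile scaling, no filter, at least 10 reads in every library, a skeletal muscle score, and leaving out each library.

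The members and lists were chosen with earlier results of these data known. Values per library are given for the 3 members of each role with the largest absolute log2 fold change, for *Ifit3b*, *Irf1*, *Irf8* and *Adar* by role, and for up to 3 genes with the smallest p in each other list, of which 1 is not reported here. *Bst2*, *Ifitm3* and the Y-linked genes were added after their values were seen.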

Additional observations from a re-analysis of the deposited data

How the results depend on the processing

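Scaling by RLE or upper quartile and either other filter changed no call of a member and no sign. With the replicate block, the skeletal muscle score, and DESeq2 in turn, the genes called across all genes (47 higher and 81 lower) became 11 and 36, 25 and 48, and 307 and 381. Members called higher (1) became 0, 0 and 13, and the block changed no other call of a member. Members higher at an unadjusted p under 0.05 (23) fell to 9 with the muscle score. Leaving out 1 library gave 2 to 139 genes higher, 6 to 137 lower, 0 to 18 members called and 13 to 33 members at an unadjusted p under 0.05, each with its highest value without LysM-Cre replicate 2. The 13 members without LysM-Cre replicate 1 or 3 stood against 4.05% and 4.88% of all genes, and no share is given for the 33. The median log2 fold change lay between 0.33 and 0.61 with 1 library left out and was 0.29 with the muscle score. The difference between groups in the library mean of the members was 0.51, or 0.50 on log2(TPM + 0.5), 0.49 without the near copies, and 0.39 to 0.72 with 1 library left out. Members whose groups were apart numbered 18 with all libraries, against 8.94% of all genes, and 36 without LysM-Cre replicate 2, against 18.5%. Fewer libraries make such a separation easier for any gene. The number was 18 to 36 over the fits with 1 library left out and 17 from the TPM, an alternative chosen after seeing the data. No share of all genes is given for the other libraries left out or for the TPM.

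Signs turned for few members, each with a small log2 fold change. With the muscle score they were *Bst2* (-0.12), *Ifi27* (-0.10), *Ifi35* (-0.03) and *Ifitm3* (0.01). With 1 library left out, *Irf8* ranged from -0.13 to 0.04, *Oas1g* from -0.14 to 0.04, *Oas2* from -0.02 to 0.19 (-0.00 without LysM-Cre replicate 1) and *Ifi27* from -0.01 to 0.19. The cause was not tested. Depth limits the least abundant members: *Oas1g* rests on 40 to 49 reads a library and *Oas3* on 40 to 105.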
